A study of Drosophila melanogaster with 2 samples.

Results

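Core promoter peaks of non-divergent autosomal genes were the sites of Hr39 occupancy whose summit lay within 250 bp of a transcription start site (TSS) of a protein-coding gene on 2L, 2R, 3L, 3R or 4, the autosomal arms of *Drosophila melanogaster*. Summits within 1000 bp of both TSSs of a divergent pair, in which a minus-strand TSS lies to the left of a plus-strand TSS, were left out. Of the 5925 autosomal peaks in the authors' optimal set, 752 met this rule (12.7%), out of 7444 peaks in the whole set. The rule used position and not the height of a peak. The peaks came from chromatin immunoprecipitation and sequencing (ChIP-seq) with an anti-GFP antibody on whole white prepupae, males and females pooled, of strain Hr39-RC-GFP, a stable transgenic line with GFP fused to the C terminus of Hr39. There was 1 group of 2 biological replicates, numbered 1 and 3, and no second condition. Immunoprecipitation from flies lacking the GFP fusion was not analysed here, which leaves Hr39-dependent and other signal mixed in these peaks, and whole animals mix all tissues.

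Hr39 is an orphan nuclear receptor of the NR5 family, whose members bind as monomers to an extended half-site with the core CAAGGNC, and the white prepupa stage opens metamorphosis at the end of the late larval pulse of ecdysone. A core promoter is the stretch around a TSS on which RNA polymerase II and the general transcription factors assemble. In flies, promoters of developmentally regulated genes often hold a TATA box, an initiator or GAGA elements, while those of broadly expressed genes tend to hold the DNA replication-related element (DRE), bound by Dref, or motifs numbered by Ohler and colleagues, of which motif 1 is bound by M1BP. Many fly promoters are shared by divergent gene pairs, and the rule left out summits within 1000 bp of both TSSs of such a pair.

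The sequences of 4 promoters show where the strongest summits fell. They are the highest-signal members outside the arm whose sequences are not shown here, read from the RefSeq dm6 genome on the strand of the gene, from 220 bases before to 20 bases after the TSS (chr3L:19590504-19590744, minus strand, for CG14100; chr3R:23669639-23669879, minus strand, for CG31145; chr2L:10010134-10010374, plus strand, for Trp1; chr3R:12449076-12449316, plus strand, for CG18549). Capitals mark the 21 bases centred on the summit.
CG14100: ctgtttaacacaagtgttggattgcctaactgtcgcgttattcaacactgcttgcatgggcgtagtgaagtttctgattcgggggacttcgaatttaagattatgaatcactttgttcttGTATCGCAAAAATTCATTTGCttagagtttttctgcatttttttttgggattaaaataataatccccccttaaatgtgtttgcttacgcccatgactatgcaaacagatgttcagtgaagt
CG31145: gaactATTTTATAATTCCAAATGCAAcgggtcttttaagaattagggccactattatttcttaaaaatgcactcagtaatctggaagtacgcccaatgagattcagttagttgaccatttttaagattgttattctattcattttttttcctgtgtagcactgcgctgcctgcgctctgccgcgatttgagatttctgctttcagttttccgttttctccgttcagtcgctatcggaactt
Trp1: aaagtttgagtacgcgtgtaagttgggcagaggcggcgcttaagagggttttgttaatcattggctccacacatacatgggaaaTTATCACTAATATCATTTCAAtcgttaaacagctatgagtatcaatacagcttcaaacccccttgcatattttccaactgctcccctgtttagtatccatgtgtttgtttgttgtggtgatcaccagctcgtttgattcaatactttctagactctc
CG18549: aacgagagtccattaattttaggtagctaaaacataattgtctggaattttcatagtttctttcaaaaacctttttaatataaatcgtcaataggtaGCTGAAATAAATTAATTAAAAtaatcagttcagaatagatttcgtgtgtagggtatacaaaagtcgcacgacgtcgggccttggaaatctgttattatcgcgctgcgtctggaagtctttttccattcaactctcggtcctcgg
The summits lay 90, 205, 126 and 113 bp before these TSSs. GC content of the windows was 37.3%, 38.6%, 40.7% and 35.7%, in the same order.

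A second set of 4 promoters, from 100 bases before to 25 bases after the TSS, shows the core promoter motifs counted among the members. Each is the highest-signal member with that motif outside the same arm (chr3L:21840102-21840227, minus strand, for P5CDh1; chr3R:25258798-25258923, plus strand, for CG11857; chr3R:7473756-7473881, minus strand, for CG1142; chr3L:9383963-9384088, plus strand, for Hsp27). Capitals mark the match to the DRE core in P5CDh1, to Ohler motif 7 in CG11857, to Ohler motif 1 in CG1142 and to the TATA box in Hsp27.
P5CDh1: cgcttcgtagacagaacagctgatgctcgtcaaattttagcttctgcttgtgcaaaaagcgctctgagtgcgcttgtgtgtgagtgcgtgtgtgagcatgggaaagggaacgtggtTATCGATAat
CG11857: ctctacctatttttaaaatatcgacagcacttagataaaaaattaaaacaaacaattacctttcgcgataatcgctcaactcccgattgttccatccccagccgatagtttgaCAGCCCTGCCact
CG1142: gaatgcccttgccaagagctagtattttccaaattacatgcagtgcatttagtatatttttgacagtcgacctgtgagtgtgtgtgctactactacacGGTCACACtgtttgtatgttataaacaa
Hsp27: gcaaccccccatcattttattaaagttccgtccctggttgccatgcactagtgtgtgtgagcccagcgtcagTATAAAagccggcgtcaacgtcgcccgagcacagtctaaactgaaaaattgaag
The DRE match began 16 bases after the TSS of P5CDh1, which encodes an enzyme of proline breakdown, and is read on both strands because the capitals form a palindrome. The Ohler motif 7 match began 13 bases after the TSS of CG11857, the motif 1 match 2 bases before that of CG1142, and the TATA box 28 bases before that of Hsp27, a small heat shock protein. The summits of these peaks lay farther upstream than the motifs, at 239, 93, 182 and 139 bp before the TSS.

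The members belonged to few of the genes that could have had such a peak. A TSS was eligible where it was not itself part of a divergent pair within 1000 bp, which left 8044 of 11749 autosomal protein-coding genes. Of these, 713 had a core promoter peak, a background of 8.86%. With the 5925 highest-signal autosomal regions of each replicate taken alone, the share was 8.42% in replicate 1 (677 genes) and 10.2% in replicate 3 (820 genes), and the number of core promoter peaks was 710 and 862 (786 ± 107, SD, n = 2). Both replicate lists named 553 eligible genes in common, and 541 of the genes of the optimal set were in both.

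Per arm, the optimal set held 163 members on 2L, 186 on 2R, 179 on 3L, 215 on 3R and 9 on the small chromosome 4. The share of eligible genes was 8.82% on 2L, 8.99% on 2R, 8.96% on 3L and 8.61% on 3R, a range narrower than the gap between the replicates. On chromosome 4 it was 12.1% (8 of 66 genes), but the replicates gave 4 and 18 core promoter peaks there, so this arm cannot be ranked against the others.

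The authors had already thresholded the optimal set on irreproducible discovery rate, which selects peaks that agree between lists. Matches of members and of the strongest members to the replicates are thus descriptions and no independent measure of reproducibility. The candidate list of each replicate held 30000 regions, far more than the 7444 of the optimal set. Every member had a candidate summit within 100 bp in at least 1 replicate. Both replicates had one for 678 members (90.2%), replicate 1 alone for 10 and replicate 3 alone for 64. Among the other autosomal peaks both replicates had one for 93.4%. With only the 5925 highest-signal autosomal regions of each replicate, both had one for 76.2% of members. For the 678 members matched in both, Spearman's correlation of their signal between the replicates was 0.883, a description over regions that share the same 2 libraries, and the median distance between the 2 summits was 15 bp. Neither replicate led: 352 members ranked higher in replicate 1 and 324 in replicate 3. From its values, and not from a label, the authors' signal was taken as not scaled to depth. It was used only to rank peaks within a list, where rank 1 is the highest signal among the 7426 peaks on these arms and X.

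The 25 members with the highest signal had optimal ranks up to 145, and all 25 were found in both replicates, at ranks up to 150 in replicate 1 and 195 in replicate 3. CG14100, at 3L:19590400-19590833, held the highest signal of the set (6049) and ranked 1 in both replicates. CG1888 (2R:9546981-9547431, summit 229 bp upstream) had an optimal rank of 6, with ranks 6 and 7 in replicates 1 and 3. CG31145 (3R:23669591-23670098, 205 bp upstream) ranked 21, with 27 and 23 in the replicates. No function is given here for these 3 genes.

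Next came genes with known roles. Trp1, the fly homolog of the Sec62 subunit of the protein translocon of the endoplasmic reticulum, ranked 27 (2L:10010021-10010438, 126 bp upstream). Sox14, an HMG-box transcription factor induced by ecdysone at metamorphosis, ranked 28 (2R:23978347-23978778, 246 bp upstream, close to the distance limit). GstE13, a glutathione S-transferase, ranked 29 and was the 1 gene of the 25 with its summit downstream, at 84 bp inside a UTR. These peaks kept ranks of 22 to 30 in both replicates.

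The remaining 19 of the 25 covered several kinds of genes. Signalling genes among them were gish, a casein kinase I (rank 40, 48 in replicate 1 and 32 in replicate 3), Sesn, a stress-induced inhibitor of TORC1 (rank 61, 53 and 67), and gro, the Groucho corepressor (rank 112, 109 and 116). Enzymes of metabolism were Lpin, a phosphatidate phosphatase (rank 100, 124 and 91), aay, a phosphoserine phosphatase (rank 106, 105 and 107), and Mal-A5, a maltase (rank 145, 138 and 163). Protein folding and traffic were represented by Fkbp14, a prolyl isomerase of the endoplasmic reticulum (rank 85, 127 and 70), Hsp27 (rank 88, 94 and 93) and Rme-8, an endosomal DnaJ protein (rank 136, 89 and 195). Rme-8 had the widest gap in rank between replicates among these 25.

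Hpf1, a cofactor of ADP-ribosylation at histones, ranked 47, eIF6, which keeps 60S ribosomal subunits from joining 40S subunits too early, ranked 49, and px (plexus), which limits wing vein formation, ranked 137. CG18549, CG13921, nebu, CG1607, CG11857, CG1827 and brwl made up the rest, between rank 37 and rank 132. Of the 25 summits, 24 lay upstream of the TSS and 13 outside any protein-coding gene.

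Summits of the members lay on the upstream side of the TSS. Although the rule allowed 250 bp on either side, 647 of 752 (86.0%) lay upstream, 103 downstream and 2 on the TSS itself. The upstream share was 85.8% in replicate 1 and 86.1% in replicate 3 (85.9% ± 0.22, SD, n = 2). With distances upstream given as negative, the median was −113.5 bp with quartiles at −172 and −46.75 bp, and it was −114.5 bp in replicate 1 and −105 bp in replicate 3.

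The densest 50-bp bin of the optimal set lay over 100 and up to 150 bp upstream and held 165 members (21.9%), with 23.0% in replicate 1 and 19.6% in replicate 3. In replicate 3 the next bin toward the TSS, over 50 and up to 100 bp upstream, was fuller, with 22.2%. The mirror bins downstream, at 51 to 100 bp and the next 50 bp, held 14 and 23 members. The plot of summits by distance shows this as a ridge that ends at the TSS.

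**Figure D1:**
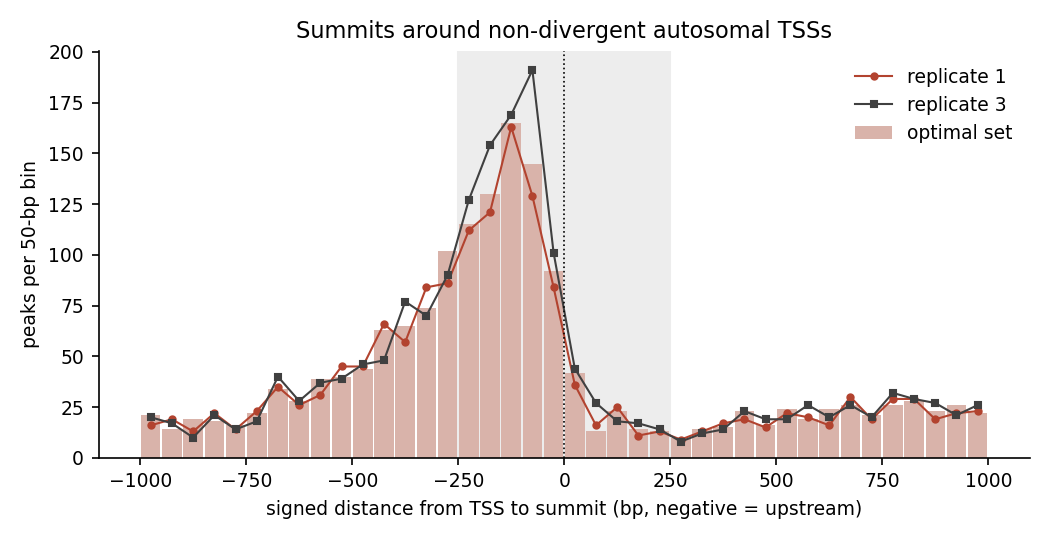
Number of peaks per 50-bp bin (vertical axis) by signed distance of the summit from the nearest TSS in bp (horizontal axis), for all non-divergent autosomal peaks within 1000 bp; bars give the optimal set, circles replicate 1 and squares replicate 3, and grey shading marks the 250 bp that define core promoter peaks. Counts climb toward the TSS from the upstream side, reach 165 in the optimal set over 100 and up to 150 bp upstream, and are low just downstream of the TSS in both replicates.

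Members with higher signal had summits farther from the TSS. With the members split by signal into 3 equal parts, 88.8% of summits were upstream at a median of −127 bp in the highest part. These values were 86.5% and −109 bp in the middle part, and 82.8% and −92.5 bp in the lowest. The limit of 250 bp cut through a continuous slope rather than a gap, as 128 members lay over 200 bp from the TSS and 112 other peaks lay in the next 50 bp beyond the limit. The members nearest the limit were the peaks of sls, a titin-like muscle protein, and Wdr62, a spindle and centrosome protein, both 250 bp upstream with signals of 382 and 122, and of Reg-5, 249 bp upstream with a signal of 1320. The peaks nearest outside it were those of CG33465, CG31075 and Obp99b, an odorant-binding protein, all 252 bp upstream, with signals of 306, 303 and 213.

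Most member summits lay outside annotated protein-coding genes. By the Ensembl annotation, 428 (56.9%) were outside protein-coding genes, 180 (23.9%) in introns, 136 (18.1%) in UTRs and 8 (1.06%) in coding exons. The introns and UTRs upstream of a TSS belong to other transcripts of the same gene or to neighbouring genes. Positions sampled every 10 bp over the 250 bp upstream of all eligible TSSs fell outside protein-coding genes in 53.9%, in introns in 30.1%, in UTRs in 12.7% and in coding exons in 3.28%. Over both sides of the TSS, the window the rule allows, sampled positions were outside protein-coding genes in 26.4%, in introns in 21.9%, in UTRs in 33.9% and in coding exons in 17.7%. The UTR share of members, 17.2% in replicate 1 and 17.4% in replicate 3, was thus above that of upstream positions and below that of positions on both sides.

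Against the rest of the autosomal set, core promoter peaks had a mildly higher share of strong peaks. Among members 98 of 752 (13.0%) were among the 593 highest-signal autosomal peaks, against 9.57% of the 5173 other peaks, and in the replicates 12.6% ± 1.28 of members against 9.62% ± 0.13 of other peaks (SD, n = 2 each). The median autosomal rank of members was 2688.5, against 2996 for other peaks. This did not hold in each replicate: it was 2748.5 against 2993 in replicate 1, but 2984 against 2961 in replicate 3. Peaks at divergent promoters, with 16.9% in that top group and a median rank of 2149, stood higher than the members. Peaks over 1000 bp from a TSS, with 6.89% and 3235.5, stood lower. The 916 non-divergent peaks beyond the core promoter distance but within 1000 bp of a TSS were near the members, with 12.2% and 2877.5. The share of strong peaks thus does not set core promoter peaks apart from these 916 peaks.

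The members sat in sequence poor in G and C, though less so than other peaks. Mean GC content from 50 bp before to 50 bp after the summit was 36.6% ± 9.28 (SD over 752 members), from 12.9% to 71.3%, against 33.3% ± 7.81 over the 5173 other peaks. In the replicates it was 36.6% ± 0.23 for members and 33.5% ± 0.65 for other peaks (SD, n = 2 each). The difference was larger than this spread, which reflects only which peaks each replicate list names. The 891 peaks at divergent promoters averaged 34.6% and the 916 peaks over 250 and up to 1000 bp from a TSS 34.4%. Windows 500 bp to each side of member summits averaged 42.8%, and 70.2% of members were below their own flanks.

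Aligned on the TSS, the promoters of members had a deeper trough upstream and a higher crest at the TSS than eligible promoters as a whole. GC content of the 740 distinct member TSSs was lowest at 31.8%, 200 to 176 bp upstream, and highest at 47.1% in the 25 bp before the TSS. Over all 10869 eligible TSS positions, members included, it was lowest at 38.1%, in the 25-bp bin that starts 225 bp upstream, and did not exceed 45.9%. Aligned on the summit, with upstream of the nearest TSS on the left, GC content of members was lowest 75 to 51 bp before the summit (33.4%), whereas for other peaks the lowest bin was the 25 bp just before it (32.9%).

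**Figure D2:**
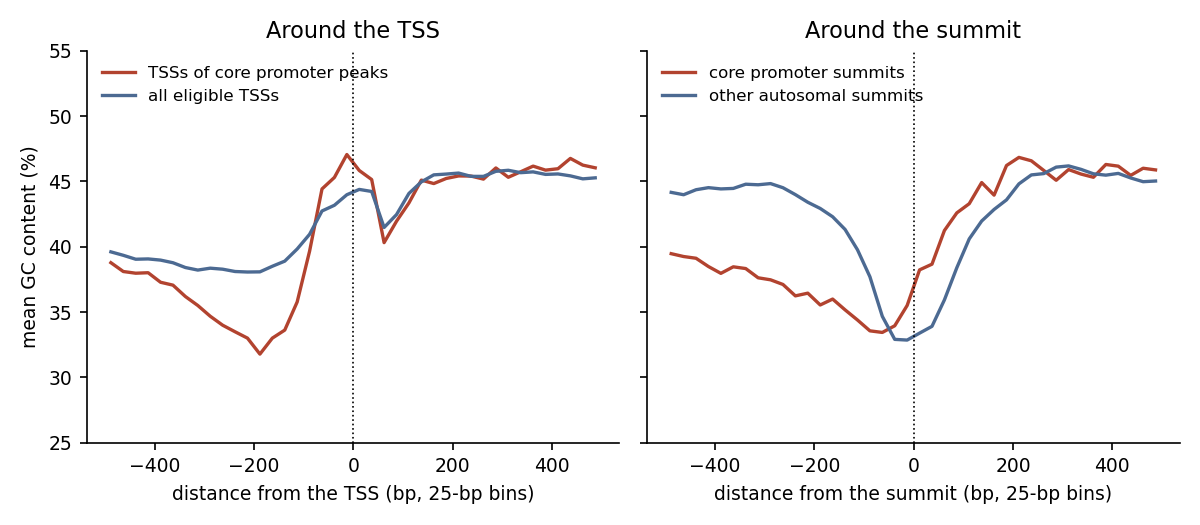
Mean GC content in percent (vertical axis, from 25 to 55) in 25-bp bins by distance in bp from the TSS (left) or from the summit (right), each oriented along the strand of the nearest protein-coding gene; lines give core promoter peaks against all eligible TSSs (left) or other autosomal summits (right). The line of the members falls to 31.8% upstream of the TSS and rises to 47.1% just before it, a wider swing than that of all eligible TSSs.

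Motifs of broadly expressed promoters were more frequent at member TSSs than at eligible TSSs as a whole, while the TATA box was less frequent. Matches were counted from 100 bp before to 50 bp after the TSS on both strands. The DRE core TATCGAT was found at 13.6% of the 740 member TSSs (13.8% ± 1.42 over the replicates, SD, n = 2), against 7.14% of the 10869 eligible TSSs. Ohler motif 7 was found at 13.4% (13.0% ± 1.26), against 5.38%, the largest ratio of the 12 motifs, at 2.49 times. Ohler motif 1 (GGTCACAC) was found at 5.68% (5.98% ± 1.01), against 3.28%. All 3 differences were larger than the spread between replicates, which reflects only which promoters each replicate list names.

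At least 1 of DRE and Ohler motifs 1, 6 and 7 was present at 228 member TSSs (30.8%), against 18.0% of eligible TSSs, and 2 or more at 8.11%, against 3.29%. Motif 6, searched with 1 mismatch, was found at 6.76% of member TSSs against 5.72%, and at 7.73% ± 0.13 over the replicates. The E-box CAGCTG, Ohler motif 5, was found at 15.7% (15.2% ± 1.14), against 9.97%.

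The TATA box (TATAAA starting 40 to 15 bp before the TSS, sense strand) was found at 23 member TSSs (3.11%; 3.14% ± 0.21 over the replicates), against 8.61% of eligible TSSs and 9.54% of those with no optimal summit within 1000 bp. The initiator (TCAGT starting within 5 bp of the TSS) was near the background, at 15.3% (14.7% ± 1.08) against 15.1%. The TCT initiator (CTTT starting within 3 bp), typical of ribosomal protein genes, was found at 3.65% against 3.37%. The GAGA element (GAGAG) was found at 207 member TSSs (27.8% ± 0.66 over the replicates) against 23.3%.

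Matches to the type of site that NR5 receptors bind were near the share of eligible TSSs and of other peaks, and lower at summits than in their flanks. The NR5 core CAAGGNC was found at 2.57% of member TSSs (2.43% ± 0.22) against 2.69%, and the half-site AGGTCA, which overlaps it, at 2.30% against 2.38%. Within 50 bp of the summit, NR5 core matches were found at 14 of 752 members (1.86%) against 2.01% of other peaks, and in 3.13% of the windows 500 bp to each side. For the half-site these were 1.73%, 2.13% and 2.73%. The GAGA element (10.4% against 14.0%) and the E-box (4.52% against 5.25%) were also lower at summits than in flanks. The A/T 7-mer was higher (14.2% against 5.98%), as were DRE and Ohler motifs 1, 6 and 7. Summit windows held less GC than flanks (36.6% against 42.8%), and whether this bears on the matches was not tested. A missing match says only that these letters are not in the window.

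**Figure D3:**
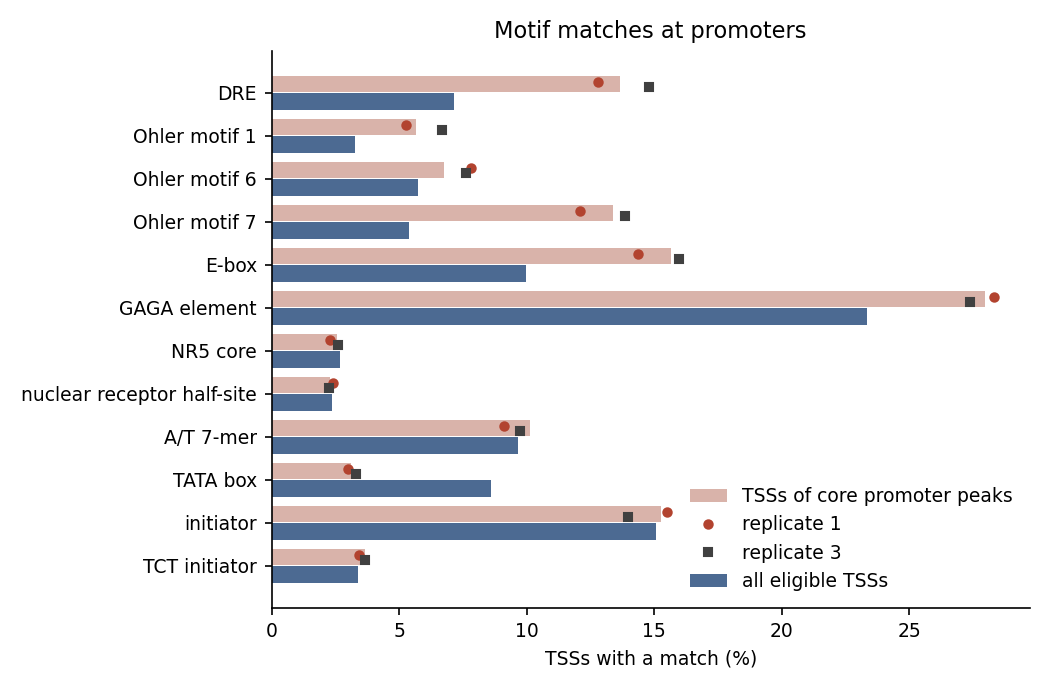
Percent of TSSs with a match (horizontal axis) for 12 motifs (vertical axis); pale bars give the 740 TSSs of core promoter peaks, circles and squares the same share in replicates 1 and 3, and dark bars the 10869 eligible TSSs. DRE, Ohler motif 7 and the E-box are higher at core promoter peaks in both replicates, the TATA box is lower, and the NR5 core is level.

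The members and all eligible TSSs differed in motif content near the TSS. DRE matches at member TSSs were densest 50 to 26 bp upstream, in 5.27% of TSSs against 2.56% of eligible ones. Ohler motifs 7 and 1 were densest in the first 25 bp from the TSS on, in 3.78% against 1.35% and in 2.57% against 1.44%. Over 100 and up to 175 bp upstream, the stretch around the median summit, DRE matches were found in 0.54% of member TSSs in each 25-bp bin, near the 0.39% to 0.64% of eligible TSSs. In the 25-bp bin that starts 225 bp upstream, members had 10 TSSs with DRE (1.35%) against 0.52%. For Ohler motif 7 they had 9 TSSs (1.22%) against 0.45%. This bin was picked for these values and rests on few TSSs. Ohler motif 1 was there at 0.41% against 0.07%, and the E-box at 0.54% against 1.17%. In the bins on either side, DRE was at 0.68% and 0.54% of member TSSs, against 0.55% and 0.48%.

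**Figure D4:**
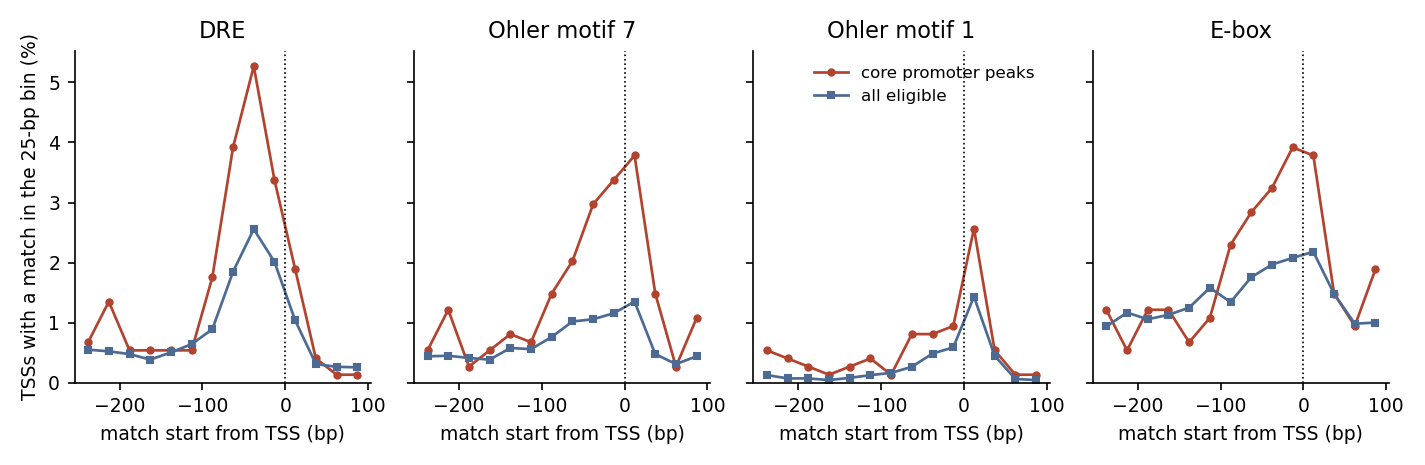
Percent of TSSs with a match starting in each 25-bp bin (vertical axis) by distance of the match from the TSS in bp (horizontal axis) for DRE, Ohler motifs 7 and 1 and the E-box; circles give TSSs of core promoter peaks and squares all eligible TSSs. The curve of the members is higher near the TSS, at 5.27% against 2.56% for DRE. The DRE bin that starts 225 bp upstream, at 1.35% against 0.52%, was picked for its height and holds 10 member TSSs.

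Members with a DRE differed in height and place from those without. The 102 peaks whose promoter held one had a median autosomal rank of 3589, against 2568.5 for the 650 without, and lay at a median of 82 bp upstream, against 120 bp. The order was the same among the candidates of replicate 1 (4533 against 3212) and replicate 3 (4316.5 against 3280). The 208 members with a GAGA element went the other way, with a median autosomal rank of 2143.5 against 2942 and a median distance of 142 bp upstream against 98 bp, and the same order among the candidates of both replicates (2573.5 against 3669 and 2820 against 3777). Of the 25 strongest members, 2 had a DRE, 2 had Ohler motif 7, none had Ohler motif 1 or 6, and 1, Hsp27, had a TATA box. Over all member TSSs the shares were 13.6% for DRE, 13.4% for Ohler motif 7, 5.68% for motif 1, 6.76% for motif 6 and 3.11% for the TATA box. With 25 members, each count was within a few promoters of these shares.

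The members lay between divergent promoters and peaks farther from a TSS in motif content. DRE was found at 13.6% of member TSSs, against 21.8% of the 877 TSSs nearest to divergent promoter peaks and 5.79% of the 847 nearest to peaks over 250 and up to 1000 bp away. The shares for Ohler motif 7 were 13.4% at member TSSs, against 23.6% and 5.55%. GAGA elements ran in the opposite order, with 28.3% and 27.4% at member TSSs in the replicates, against 14.6% at divergent promoters and 39.9% at the more distant peaks. The initiator did so too, with 15.3% at member TSSs, against 4.90% and 23.7%. The replicates kept each of these orders.

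Counted within 50 bp of the summit in place of the promoter, DRE was found at 51 members (6.78%; 6.20% and 7.89% in the replicates) against 2.32% of other autosomal peaks, and Ohler motif 7 at 6.91% against 2.63%. The A/T 7-mer TTTAAAA was found at 14.2% of members and 14.2% of other peaks. Of all 7-mers in these windows, the one with the highest ratio among those found at 20 or more members was ACTATCG, at 5.05% of members (4.79% and 5.80% in the replicates) against 1.26% of other peaks. It was picked after its values were seen, as were the words that follow. Either it or CTATCGA was found at 55 members (7.31% against 2.34%), and at 25 where no DRE core was in the window (3.32% against 1.33%). The word ACACTGC was found at 29 members (3.86% against 1.49%).

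Genes with a core promoter peak were longer and had more start sites than other eligible genes. Their median length was 5124 bp (5277 bp in replicate 1 and 4715.5 bp in replicate 3), against 2101 bp for the 7331 eligible genes without one. More than 1 TSS was annotated for 51.6% of them, against 26.2%. The share of genes with a core promoter peak was 5.99% for genes with 1 TSS, 12.1% with 2, 19.8% with 3, 27.0% with 4 and 30.1% with 5 or more, each TSS being a further place to meet the rule. Per eligible TSS, the share was 5.99% for genes with 1 TSS, 9.02% with 2, 9.63% with 3, 9.90% with 4 and 8.03% with 5 or more.

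Of the genes with a core promoter peak, 9.96% had their 5′ end inside another protein-coding gene, against 20.6% of those without. For the others, the gap to the nearest gene upstream was shorter (median 745 bp against 1095 bp), at 820.5 bp in replicate 1 and 612 bp in replicate 3.

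In 40 genes there were 2 core promoter peaks, and in 3 genes 3 or more. The gene jigr1, which encodes a MADF-domain protein, had 3 peaks, of which the strongest (rank 307) lay 208 bp upstream of its TSS. MEP-1, a zinc finger partner of the chromatin remodeller Mi-2, had 3 peaks, 94, 97 and 181 bp upstream of their TSSs, at ranks from 2414 to 6572. The gene shn (schnurri), a zinc finger factor of Dpp signalling, had 4, at ranks from 2559 to 7371, of which 2 had no matching candidate in replicate 1. A further 12 members lay within 250 bp of TSSs of 2 genes.

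Of 20 gene lists, the one of cytoplasmic ribosomal proteins had the top share of genes with a core promoter peak in the optimal set and in replicate 1, while in replicate 3 the 9 insulator and housekeeping promoter factors, with 55.6%, were just above it. Of their 35 eligible genes 16 had one (45.7%), with 16 in replicate 1 and 19 in replicate 3 (45.7% and 54.3%, SD 6.06, n = 2), against the background of 8.86%. The strongest were RpL23A (rank 864, 96 bp upstream), RpS4 (rank 1580, 34 bp upstream), RpS3A (rank 1955, 86 bp upstream) and RpL24 (rank 1967, 44 bp upstream), and none of the 16 was among the 25 strongest members. RpL10Aa and RpL11 were eligible without such a peak. The 16 summits lay closer to the TSS than those of the members as a whole, from 96 bp upstream to 18 bp downstream with a median of 30 bp upstream, and 11 of the 16 lay upstream. Their windows averaged 45.2% GC, 4 of their promoters held a DRE, 4 Ohler motif 1, 2 the TCT initiator and none a TATA box. A missing TCT match says only that CTTT did not start within 3 bp of the annotated TSS.

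Translation initiation and elongation factors had 7 of 25 (9 and 8 in the replicates, 36.0% and 32.0%). They included eIF6 (rank 49), eEF1gamma, a subunit of the elongation factor 1 complex (rank 956, 41 bp upstream), eEF1alpha1, which brings aminoacyl-tRNA to the ribosome (rank 1102, 100 bp upstream), and eEF2, which moves the ribosome along the mRNA (rank 3867, 21 bp downstream). eEF1alpha2, encoded by a second gene for this factor, and eIF2Bgamma had none. The promoters of 4 of the 7 held a DRE. Mitochondrial ribosomal proteins had 0 of 13 (1 and 0 in the replicates) and aminoacyl-tRNA synthetases 0 of 11 (0 in both). Both were within a few genes of the background of 8.86%. Only 13 of 62 and 11 of 30 autosomal genes of these lists were eligible, so they do not show a contrast within protein synthesis.

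Lists with few eligible genes gave shares that 1 or 2 genes decide. Mediator subunits, insulator factors and Rab GTPases were each within a few genes of the background of 8.86% in the optimal set. Mediator had 2 of 7, MED4 (rank 1289, 171 bp upstream) and MED21 (rank 5317, 85 bp upstream). Insulator and housekeeping promoter factors had 2 of 9, with 2 in replicate 1 and 5 in replicate 3. These were BEAF-32, an insulator protein that binds CGATA and whose sites overlap DREs (rank 1298, 33 bp upstream), and the histone H3 kinase JIL-1 (rank 3866, 24 bp upstream), while CTCF and MBD-R2 had none. Rab GTPases had 2 of 11, Rab1 and Rab11, which act in secretion and in recycling (ranks 4934 and 5753).

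Proteasome subunits had 2 of 20 (Rpn12 and Prosalpha5, ranks 4123 and 6132), vacuolar ATPase subunits 2 of 19 (Vha16-1 and Vha68-2, ranks 1991 and 4156), and respiratory chain subunits 3 of 43 (UQCR-11, ND-AGGG and ND-B22, ranks 5087 to 6113). General transcription factors had 1 of 8, the TFIIA subunit TfIIA-S (rank 2748, 36 bp upstream). Each of these shares was within a few genes of the background. Cell cycle genes had 0 of 12 (1 in each replicate) and autophagy genes 0 of 4 (0 and 1).

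Of the ecdysone-response transcription factors on the list, 1 of 10 eligible genes had a core promoter peak, both in the optimal set and by each replicate alone. It was Eip75B, an ecdysone-induced nuclear receptor that binds heme, with its summit 39 bp downstream of a TSS (rank 522, with 620 and 473 in the replicates). EcR, the ecdysone receptor, and Blimp-1 had none. Sox14 (rank 28), which is also induced by ecdysone, was not on this list and is not in its count. Heat shock proteins had 2 of 17, Hsp27 (rank 88) and its neighbour Hsp26 (rank 846, 156 bp upstream), both small heat shock proteins. Hox and segmentation genes had 1 of 23, bcd, the maternal anterior morphogen (rank 1391, 202 bp upstream), with 1 and 2 in the replicates. The ecdysone-response, heat shock, and Hox and segmentation lists were each within a few genes of the background of 8.86%. Their counts thus do not set these lists apart from other eligible genes.

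Several large tissue-restricted lists were below the background of 8.86%. Cuticle proteins, structural proteins of the exoskeleton, had 0 of 102 (0 in both replicates), and the shorter list of testis-specific genes had 0 of 18, within 2 genes of the background. Chemoreceptors had 2 of 132 (1.52%; 2 and 0 in the replicates), Ir67c and Ir60a, both near the bottom of the set at ranks 7046 and 7229. Detoxification genes of the cytochrome P450, GST and UGT families had 3 of 119 (2.52%; 3 in each replicate). Of these, GstE13 was strong (rank 29), the peak within 250 bp of Cyp6u1 (rank 239) was nearest to the TSS of another gene, Ufsp1, and Cyp317a1 was weaker (rank 4341).

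**Figure D5:**
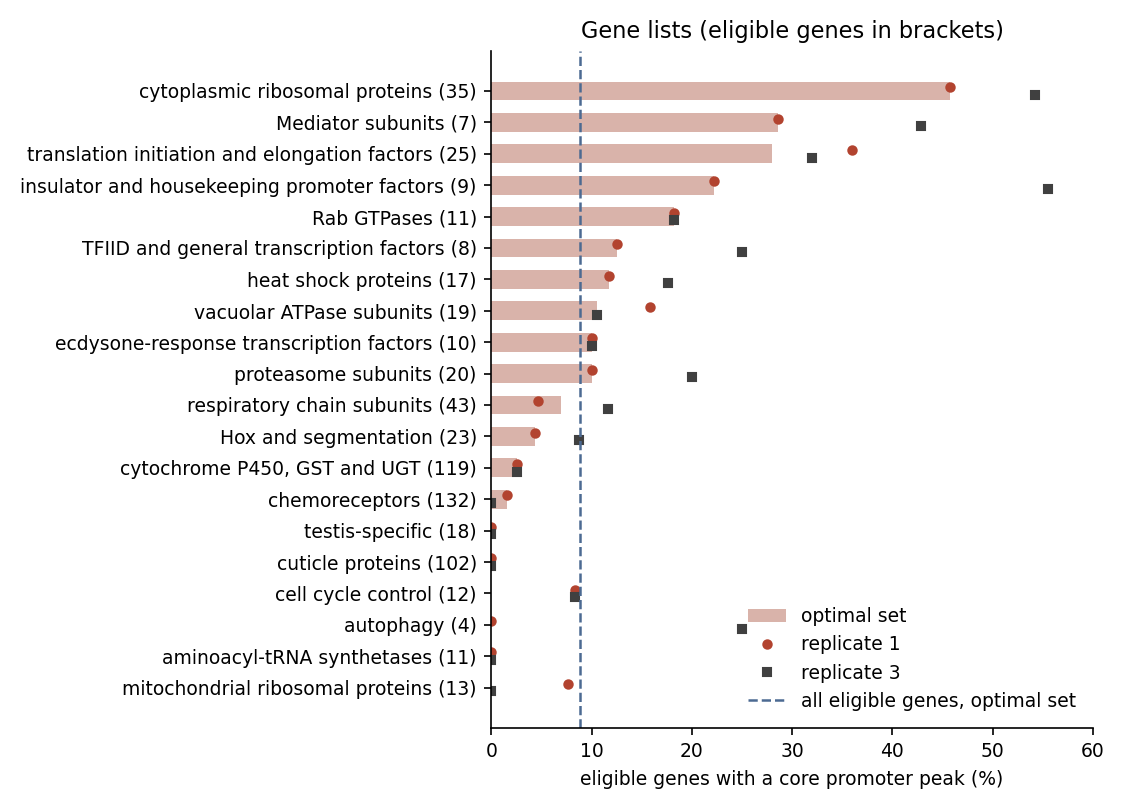
Percent of eligible genes with a core promoter peak (horizontal axis) in 20 gene lists (vertical axis, number of eligible genes in brackets); bars give the optimal set, circles replicate 1, squares replicate 3, and the dashed line all eligible genes (8.86%). Cytoplasmic ribosomal proteins reach 45.7% in the optimal set and at least that in both replicates, while 6 lists are at 0 in the optimal set, of which cuticle proteins, with 102 eligible genes, is the longest.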

How the data were processed

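Per the labels, the assay was ChIP-seq with an anti-GFP antibody on sonicated chromatin, and files use dm6. Aligner and peak caller: not given in the sources used here. Candidate regions per replicate and an optimal set thresholded on irreproducible discovery rate were deposited by the authors. Each region has a summit offset and a signal value of the authors, which was used only for ranks. That this signal is not scaled to depth was inferred from its values. As the lists hold no read counts, the depth of each sample is unknown. The deposited −log10 q values were not used.

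TSSs came from Ensembl 115, whose coordinates hold all region ends, and sequence from RefSeq's dm6 assembly. Of the listed gene names, 4 matched no annotated gene. Positions are signed along the gene's strand. Replicate values apply the same rule to the 5925 highest-signal autosomal regions of each replicate and are given as mean ± SD, n = 2. With 1 group no test was made, and the spread between replicates is the only measure of error given. For motifs and GC content, which are fixed by the genome, it reflects only which promoters or peaks each list names. Summits within 100 bp were matched. Members, gene lists, motifs and naming rules were chosen with earlier results of these data known. The genes named are those of the 25 highest-signal members, up to 4 with and 2 without a peak per list, the 3 peaks on each side of the distance limit, and genes with 3 or more peaks. Alternatives were other distances, TSS sets, windows and each replicate alone. The code, in Python 3.11.15 with numpy 2.4.6, pandas 2.3.3 and scipy 1.17.1, was tested on simulated data.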

Additional observations from a re-analysis of the deposited data

How the results depend on the processing

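The number of core promoter peaks and the share of eligible genes depend on how a core promoter is defined, and the shares of their features move with it. A TSS distance of 100 bp gave 293 peaks, 3.63% of eligible genes, 80.9% of summits upstream, DRE at 20.5% and a mean GC content of 40.1%. At 500 bp these were 1179, 12.8%, 84.4%, 10.2% and 35.7%. With divergent pairs kept they were 1564, 16.3%, 85.4%, 18.0% and 35.5%, and with only peaks of signal above the autosomal median 403, 4.92%, 88.6%, 10.2% and 35.0%. The 5′ end of each gene alone gave 85.1% upstream and DRE at 16.6%, and the region midpoint gave 36.0% GC. DRE was at 16.1% with a window from 250 bp before the TSS, and GC content was 37.2% over 100 bp on each side of the summit. A candidate in both replicates within 50 bp was found for 83.0%, and one among the highest-signal regions of each replicate for 76.2%. Over the 6 results, 27 of 40 values under these settings moved and 13 did not. The limit was 1.5 times for the count, 1 SD between replicates for shares and GC content, and for a candidate in both replicates the exact 95% binomial interval over members, 87.8% to 92.2%. The members share the same 2 libraries, so this interval served only as a limit and does not measure error between replicates. The causes were not tested.

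Each replicate alone gave 710 to 862 peaks, 8.42% to 10.2% of eligible genes, 85.8% to 86.1% upstream, DRE at 12.8% to 14.8% and 36.4% to 36.8% GC. The share of eligible ribosomal protein genes was 45.7% at 100, 250 and 500 bp, 62.8% with divergent pairs kept and 22.9% with peaks above the median signal. No paired analysis was possible because there is 1 group. Shares from short lists rest on few genes, and depth limits no value that can be stated here, as no read counts were analysed.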
